A study of Mus musculus and Rattus norvegicus with 21 samples.

Results

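The regions described here are stretches of H3K27me3 that were called in the thyroid of Glis3-deficient mice on a low iodine diet and in no other H3K27me3 library, and that also held a binding peak of NKX2.1 or PAX8 in the thyroid. They were chosen by peak overlap alone, as the peaks of the Glis3KO-LID H3K27me3 list on the 19 numbered chromosomes that overlapped no peak of the other 3 H3K27me3 lists (WT-LID, Glis3KO-ND and WT-ND) and shared at least 1 bp with a mouse NKX2.1 or PAX8 peak. There were 722 such regions among the 17570 H3K27me3 regions of Glis3KO-LID and the 27185 of all 4 libraries. Being called in Glis3KO-LID alone and being bound by a factor are therefore properties of the selection. Of the Glis3KO-LID regions, 13675 overlapped no region of the other libraries, which is 77.8%, and 5.28% of those 13675 held a factor peak and are the 722. The remaining 12953 Glis3KO-LID-only regions, without a factor peak, and the 898 factor-bound Glis3KO-LID regions that were shared with another library served as comparisons.

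Whole thyroid glands of C57BL/6 mice of 1 month of age were profiled by ChIP-Seq. Glis3KO mice carried the allele labelled B6.Glis3<tm2(mCherry)Amj>, a targeted allele with mCherry, and WT mice served as controls. Both genotypes were fed either a low iodine diet (LID), which raises thyrotropin (TSH), or the NIH-31 normal diet (ND), and each combination of genotype and diet gave 1 H3K27me3 and 1 H3K4me3 library. NKX2.1 and PAX8 were each profiled in 1 library labelled as WT on LID. The study's methods instead describe older Glis3-EGFP mice for these factors, kept on LID for longer than the mice of the histone libraries. No factor binding was measured in Glis3KO glands. With 1 library per group there is no replicate check and no p-value. The deposited NKX2.1 and PAX8 lists are longer than the peak numbers given in the study's text and their threshold is not known, so a factor-bound region means one that overlaps an entry of these longer lists. The deposited lists give positions only, so the read depth behind them is unknown, and the 95% intervals below cover the counting of regions alone.

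H3K27me3 is the mark laid down by Polycomb repressive complex 2 and is typical of silenced genes, whereas H3K4me3 marks the start sites of active or poised genes, and promoters that carry both are known as bivalent. NKX2.1 and PAX8 are the homeodomain and paired-domain factors that, with FOXE1 and HHEX, set up and maintain the thyroid follicular cell, the cell that takes up iodide and makes thyroid hormone. GLIS3 is a Kruppel-like zinc finger protein that acts downstream of TSH in these cells. In whole glands, H3K27me3 and H3K4me3 over one region may come from the same cells or from different cells, and a change in the number of cells of a type cannot be told apart from a change within them.

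The factor peaks that put 5 of the regions in the set are shown first, because they are the DNA on which the selection rests. They cover the thyroid genes Slc5a5 and Adm2, the epithelial gene Epcam, Gna14, and the region that held more factor peaks than any of the others, in Ssbp3. Sequences are from the GRCm38 (mm10) reference of RefSeq, plus strand, 5′ to 3′. Capitals mark matches on either strand to 4 short core motifs, namely CACTTGA and CTCAAG of the NKX type, GCNTGAC of the PAX type and TGGGGGG of the GLIS type. Bases annotated as untranslated are left out.
Slc5a5, NKX2.1 peak, chr8:70891462-70891761: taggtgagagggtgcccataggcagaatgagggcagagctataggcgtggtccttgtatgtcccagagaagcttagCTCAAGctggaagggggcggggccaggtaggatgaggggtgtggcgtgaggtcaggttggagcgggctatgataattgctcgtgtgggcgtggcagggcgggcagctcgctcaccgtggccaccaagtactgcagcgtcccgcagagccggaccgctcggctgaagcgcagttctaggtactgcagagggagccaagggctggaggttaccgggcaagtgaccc
Adm2, PAX8 peak, upstream part, chr15:89322559-89322719: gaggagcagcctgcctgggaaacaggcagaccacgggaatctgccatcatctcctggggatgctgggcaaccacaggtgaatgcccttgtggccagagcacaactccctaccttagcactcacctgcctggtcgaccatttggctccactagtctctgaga
Epcam, NKX2.1 peak, chr17:87636122-87636421: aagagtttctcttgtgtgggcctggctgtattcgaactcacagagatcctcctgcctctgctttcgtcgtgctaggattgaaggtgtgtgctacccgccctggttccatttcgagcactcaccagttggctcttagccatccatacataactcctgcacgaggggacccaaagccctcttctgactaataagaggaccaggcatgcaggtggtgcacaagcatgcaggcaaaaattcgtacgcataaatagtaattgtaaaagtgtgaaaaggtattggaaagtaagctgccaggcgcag
Gna14, PAX8 peak, chr19:16439225-16439524: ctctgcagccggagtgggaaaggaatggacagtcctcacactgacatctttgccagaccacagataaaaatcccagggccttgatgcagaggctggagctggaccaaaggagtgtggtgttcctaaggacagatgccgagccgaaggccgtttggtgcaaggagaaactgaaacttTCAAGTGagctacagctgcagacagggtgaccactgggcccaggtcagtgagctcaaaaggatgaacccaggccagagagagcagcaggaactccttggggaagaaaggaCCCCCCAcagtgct
Ssbp3, upstream NKX2.1 peak, chr4:106950934-106951233: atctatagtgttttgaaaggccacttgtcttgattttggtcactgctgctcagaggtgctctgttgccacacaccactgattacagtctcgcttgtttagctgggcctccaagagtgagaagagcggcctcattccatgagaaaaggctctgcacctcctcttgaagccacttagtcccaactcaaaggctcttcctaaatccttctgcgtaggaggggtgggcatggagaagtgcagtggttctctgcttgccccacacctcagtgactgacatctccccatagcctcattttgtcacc
Ssbp3, downstream NKX2.1 peak, chr4:106958706-106959005: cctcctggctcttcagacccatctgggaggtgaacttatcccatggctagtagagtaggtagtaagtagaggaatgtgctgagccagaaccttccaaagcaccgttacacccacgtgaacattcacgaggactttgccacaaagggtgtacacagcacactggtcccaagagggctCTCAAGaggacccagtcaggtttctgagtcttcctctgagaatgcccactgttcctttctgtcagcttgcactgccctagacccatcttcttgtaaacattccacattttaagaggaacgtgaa
The Slc5a5 peak and the downstream Ssbp3 peak each held 1 CTCAAG match, in the Slc5a5 peak within intron 2. The Gna14 peak held a CACTTGA and a TGGGGGG match, both on the minus strand, and no match of the PAX type. The upstream Ssbp3 peak and the stretches printed for Adm2 and Epcam held none of the 4 motifs, which says only that these letters do not occur there.

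In the peaks of each factor in the regions, the motif letters of that factor's own type occurred at shares close to those in its complete list. CTCAAG was found in 30.9% of the 298 NKX2.1 peaks in the regions (95% Wilson interval 25.9 to 36.3%) and in 33.5% of all 45836 NKX2.1 peaks. CACTTGA was found in 12.1% and 13.5% of the same peaks. The PAX-type core was found in 20.8% of the 576 PAX8 peaks in the regions (17.7 to 24.3%) and in 19.8% of all 50758 PAX8 peaks. In 32851 RefSeq promoters of the same length of 300 bases, CTCAAG occurred in 15.9%, CACTTGA in 3.06% and the PAX-type core in 10.7%. TGGGGGG occurred in 5.70% of the NKX2.1 and 6.42% of the PAX8 peaks in the regions. The shares were 4.13% and 3.99% in all peaks and 8.47% in promoters. For PAX8 the interval in the regions, 4.70 to 8.73%, lay above the share in all peaks. The NKX-type letters were less frequent in the PAX8 peaks of the regions than in all PAX8 peaks. CTCAAG occurred in 20.1% (17.1 to 23.6%) against 25.4%, and CACTTGA in 6.60% (4.84 to 8.93%) against 8.99%. Factor peaks in the regions were richer in G and C, with a median of 51.5% for NKX2.1 and 54.3% for PAX8 against 47.7% and 48.7% in the complete lists.

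PAX8 was the more frequent factor. Of the 722 regions, 431 (59.7%) held PAX8 peaks only, 171 (23.7%) NKX2.1 peaks only and 120 (16.6%) peaks of both, and in 104 of these 120 the peaks of both factors overlapped each other. By the selection, the 722 are all of the Glis3KO-LID-only regions with a factor peak. Those with PAX8 made up 4.03% of the 13675 Glis3KO-LID-only regions and those with NKX2.1 2.13%. Counting each factor's peaks separately, 584 regions held 1 factor peak, 125 held 2, 12 held 3 and 1 held 4. These regions took in 0.650% of the NKX2.1 peaks and 1.13% of the PAX8 peaks on the numbered chromosomes. Of the NKX2.1 peaks inside them, 35.9% overlapped a PAX8 peak (30.7 to 41.5%), against 50.9% of all NKX2.1 peaks. Of the PAX8 peaks inside them, 19.1% overlapped an NKX2.1 peak (16.1 to 22.5%), against 46.0% of all PAX8 peaks. Among the 898 factor-bound regions shared with another library, 58.9% held PAX8 peaks only, 16.9% NKX2.1 peaks only and 24.2% both. PAX8 was thus the more frequent factor there as well.

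Their place relative to genes differed from that of the complete peak lists as well. Of the PAX8 peaks in the regions, 25.7% had their midpoint within 1 kb of a start site, against 11.8% of all PAX8 peaks, and of the NKX2.1 peaks 20.1% against 9.05%. Introns held 26.2% of these PAX8 peaks and 31.9% of these NKX2.1 peaks, against 45.7% and 48.0% of all. Within regions of at least 2000 bp, 225 of 438 factor peak midpoints (51.4%) lay in the middle 50% of the region.

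The regions were wider than the Glis3KO-LID-only regions without a factor, but far narrower than the factor-bound regions shared with another library. Their median width was 2016 bp (95% interval of the median 1889 to 2121 bp, interquartile range 1255 to 3528 bp), against 1254 bp for the unbound regions and 8737 bp for the shared ones. At the smallest width in the list, 1001 bp, were 155 of the 722 (21.5%) against 47.0% of the unbound. Above 5 kb were 102 of the 722 and above 10 kb were 23. Together they covered 2.15 Mb. Width enters the selection, since a wider region has more room for a factor peak, and for this reason later comparisons are also given by width. Regions with both factors had a median width of 2711 bp, those with NKX2.1 only 1919 bp and those with PAX8 only 1914 bp.

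**Figure D1:**
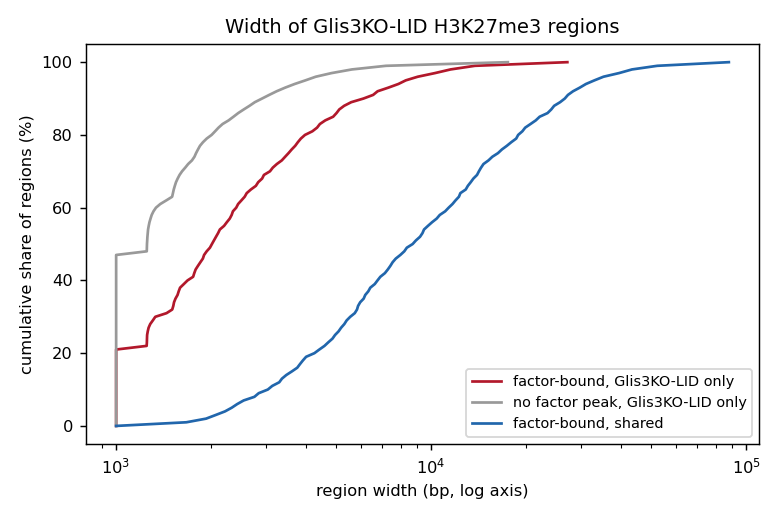
Cumulative share of regions (%) by region width (bp, log axis) for factor-bound Glis3KO-LID-only regions, Glis3KO-LID-only regions without a factor peak, and factor-bound regions shared with another library. The factor-bound Glis3KO-LID-only curve, with a median of 2016 bp, lies between the other two, whose medians are 1254 and 8737 bp.

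Most of the widest regions lacked H3K4me3, as did most of the regions in general. The widest, 27062 bp, lay within Kif1a, a neuronal kinesin motor (chr1:93029850-93056911, 1 PAX8 peak), and the next, 26908 bp, within Ssbp3, which encodes a single-stranded DNA binding protein (chr4:106934960-106961867). That Ssbp3 region held 2 NKX2.1 and 2 PAX8 peaks in 2 overlapping pairs within intron 1, and the nearest H3K27me3 region of another library was 78120 bp away. The others among the 10 widest were in Iqca (23552 bp), over the keratin gene Krt77 (19162 bp), in an intergenic stretch whose nearest start site was that of 1700018B08Rik (19055 bp), in the ephrin receptor gene Ephb1 (18295 bp), over the mast cell tryptase genes Tpsb2 and Tpsg1 (16372 bp), over Cd276 (13808 bp), near Uncx (13626 bp) and in Nfatc2 (12589 bp). In 7 of these 10, none of the 4 H3K4me3 libraries had a peak, and the same held for 59.97% of all 722 regions. The Cd276 region, which covered the start site of this immune checkpoint gene, was the one with H3K4me3 in all 4 libraries, over 1285 bp in Glis3KO-LID and 1311 bp in WT-LID.

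A further 12 regions held 3 factor peaks each. They lay over the start sites of Snorc, the pentraxin gene Nptx1, the adhesion receptor gene Adgrl3, the cytokine receptor gene Csf2ra, the neuregulin gene Nrg1, Epcam and Pstpip2, within Pard6g, Camta1 and Myorg, and in intergenic stretches nearest to Septin9 and Adra2c. At Nptx1 the region of 4298 bp (chr11:119546105-119550402) carried H3K4me3 over 3974 bp in Glis3KO-LID, 4035 bp in WT-LID, 4298 bp in Glis3KO-ND and 3899 bp in WT-ND, so that H3K27me3 was called over a promoter marked along nearly its whole length in every library. At Adgrl3 (3975 bp) the same values were 3593, 3827, 3516 and 3975 bp. Csf2ra stood apart in holding 3 PAX8 peaks and no NKX2.1 peak.

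The factor-bound regions carried H3K4me3 more often than the regions without a factor. An H3K4me3 peak of Glis3KO-LID overlapped 239 of the 722 (33.1%, 29.8 to 36.6%), against 674 of the 12953 unbound regions (5.20%) and 6.68% of all Glis3KO-LID-only regions. The difference was 27.9 percentage points (95% Newcombe interval 24.5 to 31.4). Split by width, it was 22.03 points among regions of 1001 bp (15.99 to 29.3), 37.5 among those of 1251 to 1256 bp (21.5 to 55.4), 30.2 among those of 1257 to 1839 bp (22.6 to 38.5) and 23.5 among those of 1840 bp or more (18.8 to 28.4), so the interval excluded 0 in every width class. The factor-bound regions shared with another library carried H3K4me3 in 68.0% (64.9 to 71.0%). Factor peaks in general also met Glis3KO-LID H3K4me3, at 12.4% of all PAX8 and 9.19% of all NKX2.1 peaks. For the factor peaks in the regions these shares were 32.5% and 24.2%. Part of the difference between factor-bound and unbound regions goes with start sites. Among regions with no start site inside, the shares were 17.5% with and 2.73% without a factor, a difference of 14.8 points (11.8 to 18.2), and among regions with one they were 78.4% and 41.2%, a difference of 37.2 points (29.8 to 43.4).

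H3K4me3 over the regions was much the same in the 4 libraries. The number of factor-bound regions with H3K4me3 was 239 in Glis3KO-LID, 247 in WT-LID (34.2%, background 7.28%), 245 in Glis3KO-ND (33.9%, background 6.84%) and 239 in WT-ND (33.1%, background 6.6%). All 4 libraries marked 193 of them (26.7%), none marked 433 (59.97%), and 9 were marked in Glis3KO-LID alone. Of the unbound regions, 92.4% had H3K4me3 in none of the libraries. By length, H3K4me3 covered 309160 bp of the factor-bound regions in Glis3KO-LID and 332456 bp in WT-LID, a ratio of 0.930, and the ratio on ND was 0.992. The whole H3K4me3 lists, which differ in length between libraries, gave 0.844 on LID and 0.969 on ND. Those ratios count whole peaks, whereas the ratios of the regions leave out marked bases beyond a region's edge, so they are not directly comparable. Counted inside regions in the same way, the unbound regions gave 0.908 on LID and 1.014 on ND. The factor-bound regions shared with another library gave 0.821 and 1.021. The factor-bound Glis3KO-LID-only regions thus lay above both comparisons on LID and below both on ND. Of the 271 regions with H3K4me3 in either LID library, 149 had fewer marked bases in Glis3KO-LID, 93 had more and 29 had equal numbers. The unbound regions leaned the same way, with 473 of 863 having fewer and 334 more, and on ND 123 of 264 factor-bound regions had fewer and 109 more.

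**Figure D2:**
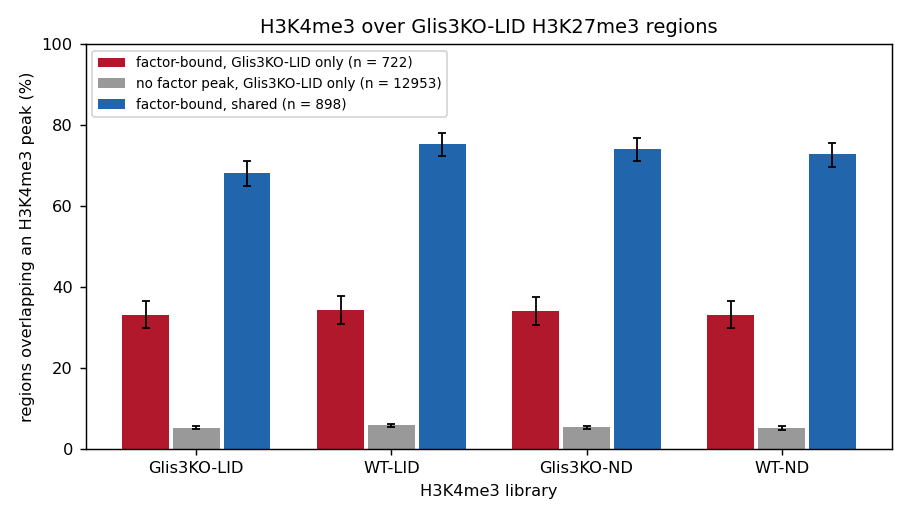
Share of Glis3KO-LID H3K27me3 regions (%) that overlapped an H3K4me3 peak, for each of the 4 H3K4me3 libraries. Bars are shares and lines their 95% Wilson intervals, which cover the counting of regions. Factor-bound Glis3KO-LID-only regions lie between 33.1% and 34.2% in every library, unbound ones between 5.13% and 5.78%, and factor-bound shared ones between 68.0% and 75.3%.

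A start site of a protein-coding gene lay inside 185 of the factor-bound regions (25.6%), inside 6.42% of the unbound regions and inside 7.44% of all Glis3KO-LID-only regions. Of the factor-bound regions shared with another library, 67.3% held one. The difference between factor-bound and unbound Glis3KO-LID-only regions was 19.2 points (16.1 to 22.5). It was smallest among the narrowest regions, 6.95 points (3.20 to 12.6), and 29.2, 18.6 and 16.9 points in the wider classes, and the interval excluded 0 in each. Of the other factor-bound regions, 234 (32.4%) lay within a gene body and 303 (42.0%) between genes, against 33.7% and 59.9% of the unbound. A start site lay in 22.2% of the regions with NKX2.1 only, 25.99% of those with PAX8 only and 29.2% of those with both, and their intervals overlapped.

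**Figure D3:**
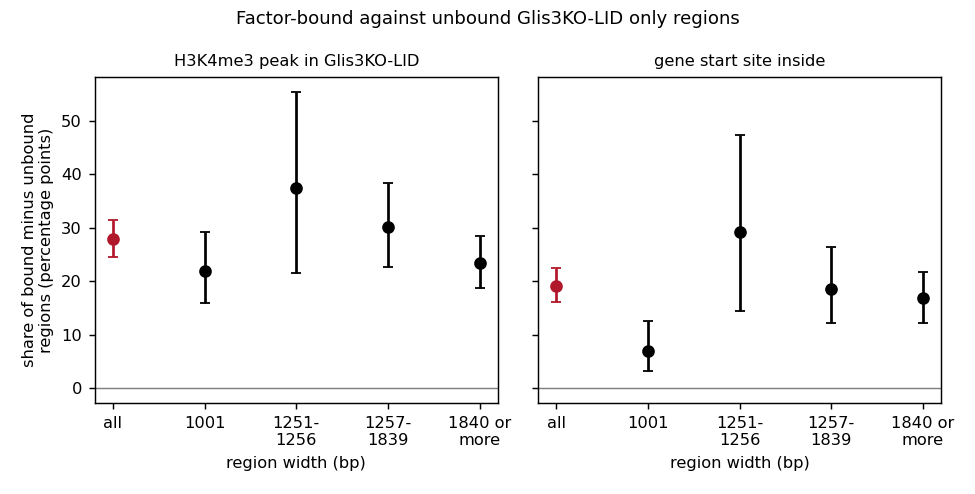
Share of factor-bound minus share of unbound Glis3KO-LID-only regions (percentage points) that overlapped a Glis3KO-LID H3K4me3 peak (left) or held a start site (right), over all regions (red) and by region width in bp (black). Lines are 95% Newcombe intervals. Every interval lies above 0, and the lowest point is 6.95, for start sites in regions of 1001 bp.

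Base composition set the regions apart by their H3K4me3 state. The 289 factor-bound regions with H3K4me3 in any library had a median GC content of 55.8% and a median ratio of observed to expected CpG of 0.490, whereas the 433 without H3K4me3 had 50.3% and 0.233. The latter values were close to those of the unbound regions, 50.2% and 0.224. A start site lay in 55.7% of the regions with H3K4me3 (49.9 to 61.3%) and in 5.54% of those without (3.75 to 8.11%). The regions without H3K4me3 lay at a median of 34975 bp from the nearest start site. Regions with H3K4me3 were thus richer in CpG and more often at start sites, and those without were poorer in CpG and mostly away from them.

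Most of the regions were well separated from H3K27me3 of the other libraries. The median distance to the nearest H3K27me3 region of another library was 56470 bp, close to the 50253 bp of the unbound regions, and for 126 of the 722 it was within 10 kb. The region nearest to the limit of the selection was 38 bp from such a region (near Ahi1), and a factor-bound region near Lrtm2 fell outside it with an overlap of 7 bp. On the side of the factors, the smallest overlap inside was 2 bp (near Plek2), 35 regions shared under 50 bp with a factor peak and 509 contained a whole one. Just outside were an unbound region near Mapk8 that adjoined a factor peak and another near Impdh1 with a gap of 4 bp. The Glis3KO-LID H3K27me3 list was also far longer than the others, with 17570 regions against 2576 to 4043, so a region that was not called in another library need not lack the mark there, and the part of list length in the selection was not tested.

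The regions came within 1 kb of a start site of 224 of 20021 protein-coding genes (1.12%), and of 2.06% of the 10736 genes with a factor peak within 5 kb. With a window of 5 kb in place of 1 kb, the share of all genes was 1.49%. The thyroid lists are short and gave 2 hits, too few to set against these shares. Of the genes for thyroid hormone synthesis, 1 of 10 was hit, Slc5a5, and of the genes induced by TSH, 1 of 8, Adm2. None of the 10 other thyroid function genes, the 5 thyroid transcription factor genes (Glis3, Hhex, Pax8, Nkx2-1 and Foxe1), the 21 extracellular matrix genes or the 8 inflammation genes was hit. These lists are functional groups taken from the study of these mice, so they are not independent of it. The start sites of Pax8 and Nkx2-1 carried H3K4me3 in all 4 libraries, as is usual for thyroid tissue, whereas that of Tg, the thyroglobulin gene, was marked in both Glis3KO libraries and in neither WT library. The start site of Glis3 carried H3K4me3 over 1356 bp in Glis3KO-LID and 1311 bp in WT-LID, and peak positions cannot check the deletion.

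Slc5a5 encodes the sodium/iodide symporter, which takes iodide up into the follicular cell (chr8:70882889-70892757, minus strand). Its factor-bound region spanned 2344 bp (chr8:70891215-70893558), from 801 bp upstream of the start site to 1542 bp downstream, and covered the first exons of the gene. H3K27me3 covered 1802 of the 2001 bp within 1 kb of the start site in Glis3KO-LID and 0 bp in WT-LID, Glis3KO-ND and WT-ND. The same stretch carried H3K4me3 over 501 bp in Glis3KO-LID, 1295 bp in WT-LID, 1257 bp in Glis3KO-ND and 1230 bp in WT-ND, so that Glis3KO-LID alone was low, at the narrowest width that occurs in the H3K4me3 lists. The NKX2.1 peak printed above put the region in the set, with its midpoint 1145 bp downstream of the start site. A second NKX2.1 peak and a PAX8 peak, which overlapped each other, lay between 2681 and 2985 bp upstream, outside the H3K27me3 region. The study calls this upstream site the Nis upstream enhancer and reports no major binding of these factors at the proximal promoter. For H3K27me3 and H3K4me3 it reports no significant difference over the changed GLIS3-bound genes. At the Slc5a5 proximal promoter it describes some small changes of these marks.

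Adm2 encodes adrenomedullin 2, also known as intermedin, a peptide of the calcitonin family (chr15:89322720-89324731, plus strand). Its region of 2908 bp (chr15:89321872-89324779) covered the entire gene, from 848 bp upstream of the start site to 2059 bp downstream. H3K27me3 covered 1849 bp of the start site window in Glis3KO-LID and 0 bp in the other 3 libraries. In the same window H3K4me3 covered 0 bp in Glis3KO-LID, 766 bp in WT-LID, 501 bp in Glis3KO-ND and 929 bp in WT-ND. The one library with H3K27me3 was thus the one without H3K4me3. The WT-LID peak ran from 235 to 2665 bp downstream of the start site, so most of it lay beyond the window. It covered 1825 bp of the region. An NKX2.1 peak (chr15:89322573-89322872) and a PAX8 peak (chr15:89322559-89322858) overlapped each other at the start site, with midpoints 3 bp downstream and 11 bp upstream of it.

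**Figure D4:**
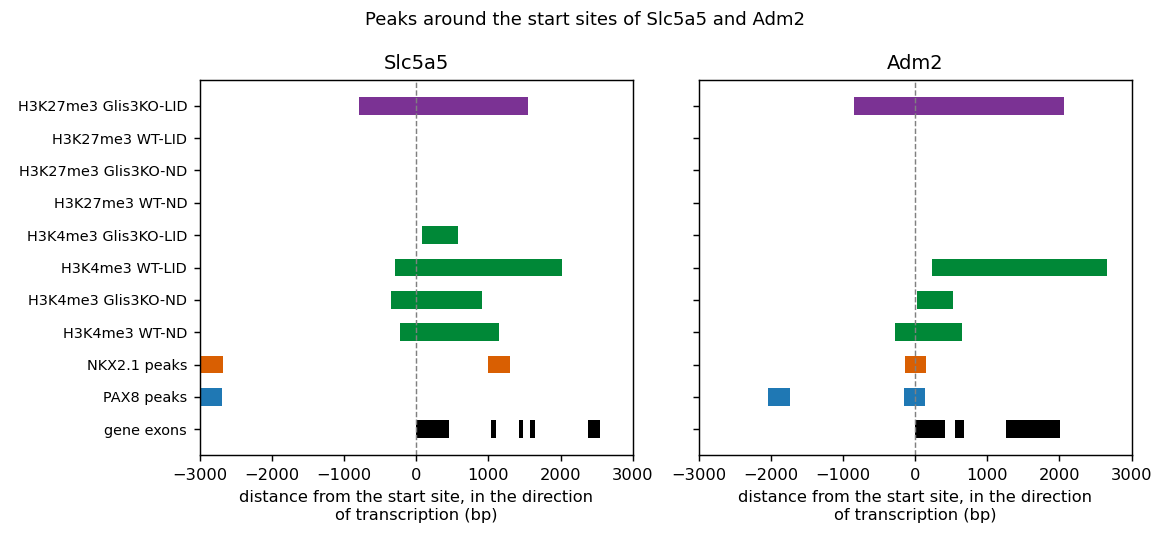
Peaks of the 4 H3K27me3, 4 H3K4me3, NKX2.1 and PAX8 libraries and the exons around the start sites of Slc5a5 and Adm2, drawn to scale against distance from the start site (bp) in the direction of transcription. Over both start sites H3K27me3 is called in Glis3KO-LID alone, where H3K4me3 spans 501 bp at Slc5a5 and is missing at Adm2.

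Other genes of thyroid hormone synthesis missed the selection for differing reasons. Slc26a4, the gene of the anion exchanger pendrin, had an H3K27me3 region of 2009 bp in Glis3KO-LID alone (chr12:31558631-31560639), but the nearest factor peak lay 127 bp outside it. The region at Duoxa1, a maturation factor of dual oxidase, was 1781 bp wide, was also called in Glis3KO-LID alone, and lay 3370 bp from the nearest factor peak. Duox2 and Duoxa2 shared a region of 4877 bp that was also called in another library and lay 79 bp from the nearest factor peak. Tg, Tshr, Iyd and Duox1 had no H3K27me3 within 1 kb of a start site in any library.

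Among markers of other cell types and pathways, single genes were hit. The region at Epcam (chr17:87634791-87637979, 3189 bp, 1 NKX2.1 and 2 PAX8 peaks), an epithelial adhesion gene, covered the whole start site window, and H3K4me3 covered 1277 bp there in Glis3KO-LID, 895 bp in WT-LID, 1179 bp in Glis3KO-ND and 1117 bp in WT-ND. Ocln, the tight junction gene occludin, was the other hit among 12 epithelial genes, with 2 PAX8 peaks and H3K4me3 over 1760, 1748, 1999 and 2001 bp in the same order. Both genes thus kept H3K4me3 in the library that carried H3K27me3. Chgb, a secretory granule gene, was 1 of 11 C cell genes, with H3K4me3 over 501 bp in WT-LID and none in the other 3 libraries. Single hits were also Pparg (1 of 8 adipocyte genes), Tead4 (1 of 12 Hippo and TEAD genes), Sox9 (1 of 25 developmental transcription factor genes), Fzd2 (1 of 21 Wnt genes) and Bmp7 (1 of 22 growth factor genes), all with H3K4me3 in all 4 libraries. None of the 13 immune, 12 endothelial, 12 fibroblast, 12 skeletal muscle, 8 lung, 5 parathyroid, 10 kidney tubule, 12 cAMP early response, 12 ER stress, 14 Polycomb or 10 housekeeping genes was hit.

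Genes that the study lists as factor-bound and lower in Glis3KO-LID than in WT-LID were hit at 15 of 325 (4.62%, 2.82 to 7.47%), and those listed as higher at 3 of 158 (1.90%, 0.648 to 5.43%). For comparison, 1.92% of the 5209 genes with both NKX2.1 and PAX8 within 5 kb of a start site were hit. These 5209 genes were not chosen by GLIS3 binding, so the groups differ in that as well. Regardless of factor peaks, H3K27me3 was called in Glis3KO-LID alone at 48 of the 325 and 7 of the 158 start sites, against 5.07% of the 5209 and 7.31% of all protein-coding genes. The lists rest on binding of GLIS3, NKX2.1 and PAX8 and on expression in mice of the same genotypes. These shares are therefore not independent of how the lists were made.

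The 15 lower genes were 1190005I06Rik, Adm2, Gna14, Lad1, Lif, Ly6e, Metrn, P2ry2, Pltp, Plxdc1, Sertad4, Slc16a9, Slc24a2, Slc5a5 and Slc6a4. Counting 1 region per gene, their regions were 1001 to 6679 bp wide, 13 held PAX8 and 5 held NKX2.1. Lif had another region, not in these counts, that held an NKX2.1 and a PAX8 peak. The start sites of all 15 carried H3K4me3 in WT-LID and both ND libraries, and those of 13 did in Glis3KO-LID, Adm2 and Gna14 being the exceptions. At Gna14, which encodes a G protein alpha subunit of the Gq family, H3K4me3 covered 0 bp in Glis3KO-LID, 1342 bp in WT-LID, 1541 bp in Glis3KO-ND and 1679 bp in WT-ND, and its region of 4342 bp came within 1 kb of the start site without covering it. The PAX8 peak in that region lay in intron 1, 3708 bp downstream of the start site. In length, 12 of the 15 had less H3K4me3 in Glis3KO-LID than in WT-LID and 3 had more, against 71.9% with less among all genes whose length differed. The 10 with most H3K27me3 in the start site window included P2ry2, a purinergic receptor gene covered over all 2001 bp, Lad1 over 1937 bp, Plxdc1 over 1789 bp, the lipid transfer gene Pltp over 1781 bp, Sertad4 over 1680 bp, Slc24a2 over 1617 bp, the monocarboxylate transporter gene Slc16a9 over 1569 bp and the serotonin transporter gene Slc6a4 over 1560 bp, beside Adm2 and Slc5a5. At P2ry2 the H3K4me3 values were 1306 bp in Glis3KO-LID, 1700 bp in WT-LID, 1453 bp in Glis3KO-ND and 1764 bp in WT-ND, and at Pltp they were 1445, 1450, 1313 and 1288 bp, so the difference at Slc5a5 was not shared by every lower gene. The 3 higher genes were Cbs, the cystathionine beta-synthase gene, the potassium channel gene Kcnn2 and the kinase gene Wnk2. Each carried H3K4me3 in all 4 libraries. All 3 also had less H3K4me3 in Glis3KO-LID than in WT-LID, with differences of -273, -375 and -30 bp in that order. A WT-ND region that did not overlap the Kcnn2 region lay within the same start site window.

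Across the 224 genes, H3K4me3 was present at 178 start sites in Glis3KO-LID, at 162 in all 4 libraries and at 28 in none. Of the 186 marked in WT-LID, 16 had no H3K4me3 in Glis3KO-LID (8.60%, 5.36 to 13.5%), against 6.77% of all genes marked in WT-LID. Of the 179 whose marked length differed between the LID libraries, 118 had less in Glis3KO-LID (65.9%, 58.7 to 72.5%), against 71.9% over all genes. On ND the share with less in Glis3KO was 52.6%, against 52.7% over all genes. The genes with a factor-bound region therefore lost H3K4me3 in Glis3KO-LID at about the rate of genes in general.

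**Figure D5:**
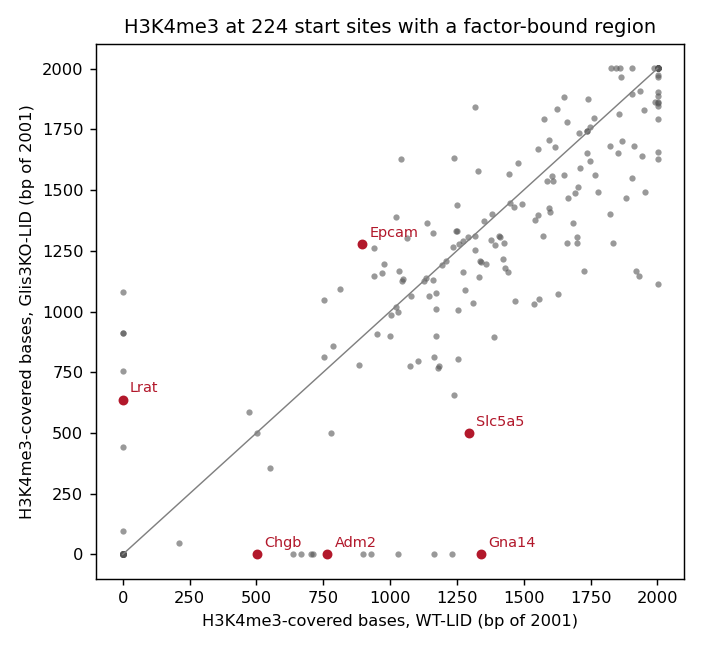
Bases within 1 kb of the start site covered by H3K4me3 (bp of 2001) in Glis3KO-LID against WT-LID for the 224 genes with a factor-bound Glis3KO-LID-only region within 1 kb. Each point is a gene, the line marks equal lengths, and named genes are in red. Adm2, Gna14 and Chgb lie at 0 bp in Glis3KO-LID, Slc5a5 at 501 bp, and Lrat at 0 bp in WT-LID.

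Slc5a5 and Adm2 were among the 10 genes with the largest loss of H3K4me3 length at a start site inside a region, where the length fell by 794 and 766 bp from WT-LID to Glis3KO-LID. Ahead of them stood Ada, the adenosine deaminase gene, which had 0 bp in Glis3KO-LID, 1233 bp in WT-LID, 1380 bp in Glis3KO-ND and 1015 bp in WT-ND. The cation channel gene Trpc4 had 0 bp in Glis3KO-LID and 1166 bp in WT-LID, but 750 bp in Glis3KO-ND and 0 bp in WT-ND. Elapor1 and 1700013F07Rik shared a region and were marked in WT-LID alone. The kinase gene Dclk1 was marked in the WT libraries alone, with 899 bp on LID and 914 bp on ND. At Cbarp, H3K4me3 was shorter in both Glis3KO libraries, with 1114 bp against 2001 bp on LID and 1157 bp against 2001 bp on ND. Pgpep1l and Plaat1 completed the list, with 765 and 711 bp in WT-LID and 0 bp in Glis3KO-LID. Of these 10 genes, Slc5a5 and Ada were the only ones marked over at least 1 kb in the other 3 libraries and shorter in Glis3KO-LID than in each of them by more than 500 bp. The limits of 1 kb and 500 bp were not among the planned rules. Gna14, not ranked here because its region did not cover its start site, met them as well. It had 0 bp in Glis3KO-LID, 1342 bp in WT-LID, 1541 bp in Glis3KO-ND and 1679 bp in WT-ND.

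The opposite direction occurred as well. Lrat, which encodes lecithin retinol acyltransferase, had 637 bp of H3K4me3 in Glis3KO-LID, 0 bp in WT-LID, 1620 bp in Glis3KO-ND and 1585 bp in WT-ND. Lrrc36 and Kctd19, whose start sites lay in one region, both gained 910 bp, Col7a1, a basement membrane collagen gene, gained 634 bp, and the aquaporin gene Aqp3 gained 589 bp. Smaller gains were found at Rab11fip1 (525 bp), Neto2 (394 bp), Fads6 (390 bp) and Epcam (382 bp). Within 1 kb of the start site, the WT libraries of the 2 diets thus differed by 1585 bp at Lrat. This was more than the genotypes differed at Slc5a5 or Adm2 on LID in the same window. Over the whole region the order did not hold for Adm2. There H3K4me3 covered 1825 bp in WT-LID and 0 bp in Glis3KO-LID, whereas at Lrat it covered 0 bp in WT-LID and 1511 bp in WT-ND.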

How the data were processed

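ChIP-Seq peak lists of 10 mouse thyroid libraries were used, 1 library per group, on GRCm38 (mm10). The deposited lists hold chromosome, start and end without counts, scores or other signal. Per the submitters' processing notes, cutadapt 1.12, Bowtie 1.2, Picard 1.110, bedtools 2.24.0 and HOMER 4.10.3 were used, with HOMER calling histone regions, and no source used here states an input control for the histone calls. Regions and gene lists were chosen with earlier results of these data known. Overlap meant at least 1 bp. Genes were RefSeq protein-coding genes with curated transcripts, 24860 start sites on the numbered chromosomes, and for a gene with several start sites the largest covered length was taken. Shares carry 95% Wilson intervals and their differences 95% Newcombe intervals (scipy 1.17.1, pandas 2.3.3, pysam 0.24.0). Width classes were cut at the quartiles of Glis3KO-LID-only widths. Their sizes differ because many regions have 1001 bp, with 155, 29, 139 and 399 factor-bound regions from narrowest to widest. The widest class runs from 1840 to 27062 bp, so width still varies within it. The interval code was tested on simulated data. Genes named were those of the thyroid lists hit, the 10 widest regions, those with most factor peaks, the 10 largest H3K4me3 losses and gains in length at start sites inside a region, and the 10 genes of the study's lower and higher lists with most covered bases. Gna14, Epcam and the Ssbp3 sequences were chosen for printing after their values were seen, as were Slc26a4 and Duoxa1 for description. Some items that met these rules are not reported here. Merged peak sets over libraries and the rat cell line files were not used here.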

Additional observations from a re-analysis of the deposited data

How the results depend on the processing

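Each group is 1 library, so no library could be left out. No paired analysis was possible because the labels give 1 library per group and no result comes from a test over samples. The 722 regions became 633 when the midpoint of a factor peak had to lie inside, 697 when no region of the other lists was allowed within 2500 bp, 877 when Glis3KO-ND overlap was allowed, and 365 when regions had to be at least 2000 bp wide. The H3K4me3 difference between bound and unbound regions stayed between 23.6 and 29.1 points and the start site difference between 17.02 and 21.96 points under the alternatives tried for each, with every interval above 0. In regions of at least 2000 bp the H3K4me3 share was 36.2% in Glis3KO-LID, 39.5% in WT-LID, 39.2% in Glis3KO-ND and 37.5% in WT-ND, the last 3 outside the interval over all widths. The thyroid, matrix and inflammation lists gave Slc5a5 and Adm2 also with a window of 5 kb and with the start site itself inside. Lower genes hit were 21 at 5 kb and 14 at the start site, and higher genes 4 and 1, a narrower window leaving fewer. Gna14 was hit within 1 kb but not at the start site. Peak positions without scores or counts set the limit here, since neither the strength of a region nor the depth behind an absent one can be read from them.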
